A study of Ovis aries with 18 samples.

Results

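PLIN4 encodes perilipin 4, a protein that coats lipid droplets, and it was represented by every SNP that the deposited table assigned to the gene symbol PLIN4. These were 10 of the 24355 SNPs, in 1 of the 5810 genes, and all lay on chromosome 5 of the ovine assembly Oar v3.1. RNA was sequenced from perirenal adipose tissue, a brown fat depot of the newborn lamb, of 18 singleton merino fetuses of wild type genotype at 132 days of gestation, 16 female and 2 male. The fetuses shared a sire, their dams were unrelated and fed to maintenance, and no treatment was given, so all 18 animals formed a single condition. Allelic imbalance (AI) is an unequal share of reads from both alleles of a SNP in an animal that carries both, and it is used as a sign of variation acting in cis. The genotype of an animal, written 0/0, 0/1 or 1/1 for the number of alternate alleles, was called by the authors from the same RNA reads that were counted.

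Perilipins bind the surface of the droplets in which fat cells store triglyceride and govern the access of lipases to them. PLIN4 is known as an adipocyte protein found on small and newly formed droplets, and the middle of the protein is a long run of near-identical repeats that forms the helix which lies on the droplet surface. Reads of a repeated stretch can be hard to place, and the part of the repeat in the shares below was not tested.

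The reads counted over all SNPs ranged from 2970824 to 5334585 per animal. Of 14 markers of brown and white adipocytes, 9 had a SNP in the table, among them UCP1, the uncoupling protein of brown fat, and ADIPOQ, and together they held 39724 to 56385 reads per 1000000 (RPM, of the reads at all SNPs). None of the 7 skeletal muscle and none of the 6 kidney markers had a SNP, so these could not be measured. The single adrenal marker with a SNP, STAR, held 30.5 to 58.2 RPM, and 3 endothelial markers together 3566 to 5214. Of 5 blood and immune markers only CD74 had a SNP, and it held 10.4 to 71.3 RPM. The list held the globins HBB and HBA1, and HBBB, which had SNPs, was not on it, so blood content was not measured. The sums depend on the number of SNPs in each gene, so the lists cannot be set against each other. Of the 244 SNPs on chromosome X, the female RS929 was called heterozygous at 71 and the 2 males at 62 and 79, against 132 to 170 in the 15 other females, so that RS929 did not match its label in this respect. The 8 calls below, and those against the neighbouring genotype, were the same in number without RS929 and the males.

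The 10 SNPs spanned 7566 bp and comprised 1 variant of the 5' untranslated region (5' UTR), 4 synonymous and 5 missense variants. The 5' UTR SNP at position 17192676 came first. After a gap of 4285 bp, 5 SNPs followed within 21 bp, at positions 17196961, 17196967, 17196975, 17196976 and 17196981, which are called the dense run below. The first pair of these is synonymous and the other 3 are missense. Then came the missense SNP at 17197232, 251 bp after the run, the missense SNP at 17197403, which also lies in a splice region, and the synonymous SNPs at 17200121 and 17200241. The deposited alleles, reference first, were C/T at 17192676, C/T, A/G, A/G, T/A and G/C along the run, G/A at 17197232 and 17197403, and A/G at both of the last SNPs.

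The 5 SNPs of the dense run had one and the same genotype call in each of the 18 animals. RS943, a female, was called 0/0 at them, and the other 17 animals were called 0/1. A SNP called heterozygous in 17 or more animals was uncommon in the table, at 6.86% of all SNPs, and the median SNP was heterozygous in 9. At the other PLIN4 SNPs between 10 and 12 animals were heterozygous. The calls at 17197232 and 17197403 were also identical in every animal, with RS943 called 0/0, 12 animals 0/1, and RS920, RS930, RS937, RS953 and RS969 called 1/1. At 17200121 and 17200241, again with identical calls, 10 animals were 0/1 and 8 were 1/1. At 17192676, 8 animals were 0/0 and 10 were 0/1. Over the whole gene the 18 animals fell into 5 patterns of calls, the most frequent shared by 7 animals.

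Of the 10 SNPs, 8 showed AI, all with more reads of the reference allele (Poisson likelihood ratio test on reads summed over heterozygous animals, Benjamini-Hochberg adjusted over 24244 SNPs). In the table as a whole the test called 38% of SNPs (45% at an unadjusted p-value under 0.05, where again 8 PLIN4 SNPs passed), 28.9% with a higher reference and 9.01% with a higher alternate allele. Of the 8, 5 were the SNPs of the dense run, whose calls were identical and whose reads are shared. Among SNPs heterozygous in 15 or more animals the test called 68.2%. Among the SNPs of all runs with 5 or more SNPs within 25 bp, PLIN4 included, it called 86.7%. Depth bears on how small a departure is called, and its part in these counts was not tested. The same number of PLIN4 SNPs, 8, passed a quasi-binomial F test in which each animal was a replicate, against 24.5% of SNPs in the table. The departures were of unlike size. Within the dense run the reference share lay far from 50%, whereas at the 5 SNPs around it the summed share ranged from 49.6% to 59.98%.

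The reference share was highest at the last SNP of the run, 17196981, where the 17 heterozygous animals had 19385 reference and 2190 alternate reads. Single animals ranged from 85.3% to 92.7%, with a median of 91.2% and a mean of 90.2% ± 2.52 (SD over 17 animals; two-sided permutation test by sign flips with 100000 resamples, p = 2e-05). Every one of the 17 animals had more reference than alternate reads at each of the 5 SNPs of the run. The mean share was 70.0% ± 5.77 (SD, n = 17) at 17196961, 78.0% ± 4.40 at 17196967, 86.3% ± 3.28 at 17196975 and 86.3% ± 3.22 at 17196976. The likelihood ratio statistics of 17196975, 17196976 and 17196981 were the largest of the gene and ranked 12, 13 and 10 in the whole table. The statistic grows with read depth, which was high at these SNPs, so the ranks do not order the size of the imbalance.

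No imbalance was detected at the next SNP, 251 bp past the run. At 17197232 the 12 heterozygous animals had 6977 reference and 7053 alternate reads, with single animals between 46.6% and 53.6%, a median of 50.3% and a mean of 49.99% ± 2.19 (SD, n = 12; permutation test, p = 0.990). At 17197403, only 171 bp further, the same 12 animals ranged from 57.2% to 63.3%, with a median of 59.7% and a mean of 59.9% ± 2.001 (SD, n = 12; permutation test, p = 0.00052). All 12 animals were above 50% at this splice region SNP. At 17200121 the mean was 54.8% ± 3.60 (SD, n = 10; permutation test, p = 0.00791) with 8 animals higher for the reference and 1 for the alternate allele, and at 17200241 it was 52.7% ± 1.85 (SD, n = 10; permutation test, p = 0.00391) with 9 and 1. At the 5' UTR SNP 17192676 the share was 48.6% ± 5.24 (SD, n = 10; permutation test, p = 0.401), and 4 animals had more reference reads while 6 had fewer. These p-values are not adjusted, and the adjusted p-values of the F test were 0.871 at 17192676, 0.795 at 17197232, 0.00158 at 17200121 and 0.00541 at 17200241.

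**Figure D1:**
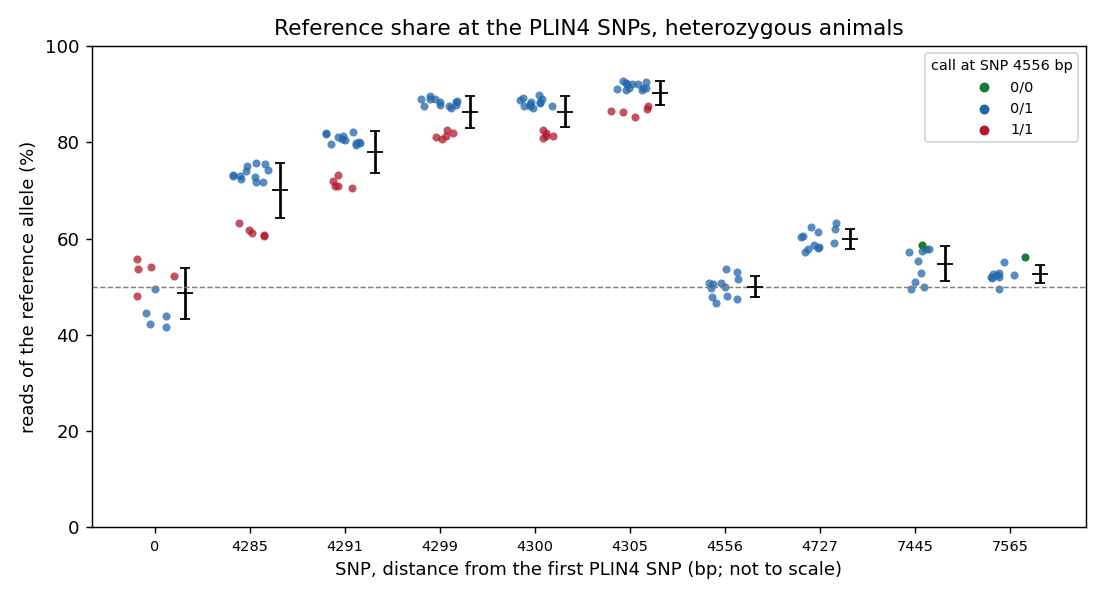
Reference allele reads, in percent of all reads at the SNP, are plotted for each heterozygous animal (points) at the 10 PLIN4 SNPs, named by their distance in bp from the first SNP, with the mean and SD over animals (black bars) and colours for the genotype call at the SNP 4556 bp along (17197232). The 5 SNPs of the dense run lie between 60.6% and 92.7% and the others between 41.7% and 63.3%, and within the run the 5 animals called 1/1 lie under the 12 called 0/1.

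Differences between neighbouring SNPs were tested within animals, on each animal's change in the log odds of the reference allele, with limma over all 13304 pairs of adjoining SNPs in a gene. Of the 9 PLIN4 pairs, 7 differed at an adjusted p-value under 0.05, against 14.2% of all pairs and 20.7% of the 2919 pairs no more than 25 bp apart. The largest step was at the end of the run, where the share in 12 animals fell by 41.7 percentage points from 17196981 to 17197232 (adjusted p = 5.26e-13). Within the run the share rose by 7.95 points from 17196961 to 17196967 (adjusted p = 1.69e-12), by 8.33 points to 17196975 (8.74e-14) and by 3.87 points from 17196976 to 17196981 (2.78e-11). The neighbouring bases 17196975 and 17196976 differed by 0.00948 points ± 0.121 (SD, n = 17; limma, adjusted p = 1.00). The step from 17197232 to 17197403 was 9.93 points (adjusted p = 3.35e-06), and that from 17200121 to 17200241 was -2.09 points (adjusted p = 0.238). Reads of 100 bp often cover more than one SNP of the run, so the values there share reads, and the phase of the alleles is not given, so that outside the run a difference can also be one of phase.

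The rise of the reference share along the dense run lay in the alternate reads. Over the 17 heterozygous animals, reference reads numbered 18871, 19148, 19520, 19148 and 19385 from the first SNP to the last, while alternate reads fell from 8547 through 5657, 3235 and 3166 to 2190. From one SNP of the run to the next, alternate reads did not rise in any of the 18 animals, RS943 included, and 1 animal had a tie. The first SNP had between 3.51 and 4.44 times the alternate reads of the last, with a median of 3.94, over only 20 bp. The reference reads of 1 animal, in contrast, varied between 1.02 and 1.05 times from the lowest to the highest SNP of the run.

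**Figure D2:**
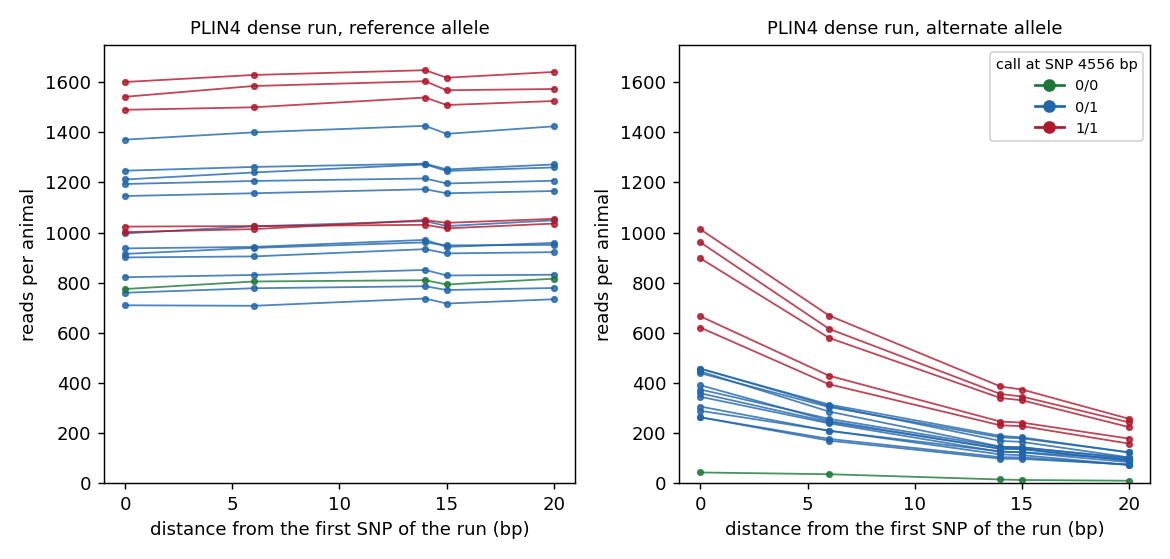
Reads of the reference allele (left) and of the alternate allele (right) are plotted for each animal along the 21 bp of the dense run, 1 line per animal, coloured by the genotype call at 17197232. Reference reads are level in every animal, while alternate reads fall 3.51 to 4.44 times from the first SNP to the last, and the 5 animals called 1/1 have the most alternate reads.

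The animals differed from one another at the run by far more than counting error. The Pearson dispersion over the heterozygous animals, for which counting error alone gives about 1, was 28.6 at 17196961, 18.2 at 17196967, 13.2 at 17196975, 12.5 at 17196976 and 9.83 at 17196981, compared with a median of 1.41 over all SNPs. Pearson chi-square tests adjusted over the table called 7 of the 10 PLIN4 SNPs, the 5 of the run together with 17192676 and 17200121, against 15.4% of all SNPs. At 17197403 and 17200241 the dispersion was 1.12 and 0.928. Dispersion rises with depth for the same spread in shares. The mean depth was 1569 reads at 17196961, against 65.5 at the median SNP, so the comparison with all SNPs is also one of depth.

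This spread followed the genotype at 17197232. At 17196961 the alternate allele held 38.3% of reads in RS920, 38.8% in RS930, 39.4% in RS937, 39.2% in RS953 and 36.8% in RS969, the 5 animals called 1/1 at 17197232. In the 12 animals called 0/1 there, it held between 24.3% and 28.2%, with a median of 26.9%. In RS943, the single animal called 0/0, it held 5.26% (43 of 818 reads, 95% Wilson interval 3.93% to 7.01%, counting error only). The 3 sets of animals did not overlap. At the last SNP of the run, 17196981, the percentages were 12.5% to 14.7% in the 5 animals, 7.34% to 9.17% in the 12, and 1.21% (95% Wilson interval 0.659% to 2.21%) in RS943, again without overlap. The comparison of these sets was chosen after the values were seen.

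The relation was therefore fitted with limma to all 16893 combinations of a SNP and another SNP of its gene within 1000 bp, as the change in the log odds of the alternate allele, in heterozygous animals with at least 20 reads, for each alternate allele carried at the other SNP. All 5 SNPs of the run were called against 17197232, with a higher alternate share for more alternate alleles, while in the table as a whole 3.23% of combinations were called and 1.97% with that sign. The odds of the alternate allele rose by 1.66 to 1.74 times per allele, and the adjusted p-values lay between 2.60e-05 and 4.97e-05. The run's 5 SNPs are covered by shared reads, and 17197403 gave the same values since its calls were identical. In these fits RS943 did not take part, and the contrast was between 12 animals called 0/1 and 5 called 1/1.

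**Figure D3:**
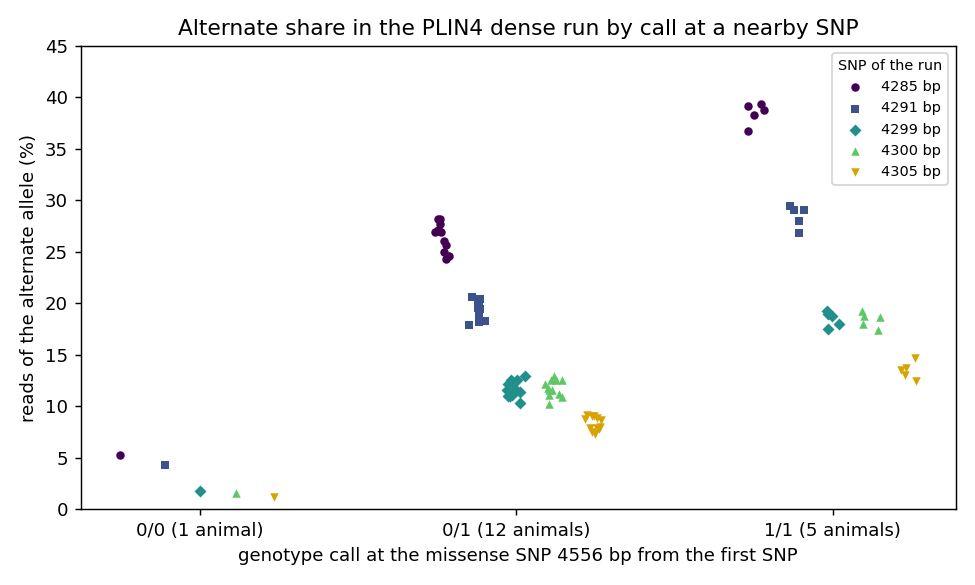
The percentage of alternate reads at each SNP of the dense run (symbols, named by distance in bp from the first PLIN4 SNP) is plotted for every animal against its genotype call at 17197232. At each SNP of the run the value is lowest in RS943, called 0/0, intermediate in the 12 animals called 0/1 and highest in the 5 called 1/1, from 5.26% to 39.4% at the first SNP of the run.

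Among animals of a single call at 17197232 the dispersion at the run was near counting error. It lay between 0.637 at 17196981 and 1.28 at 17196961 among the 12 animals called 0/1, and between 0.540 and 1.19 among the 5 called 1/1. Alternate reads at 17196961 amounted to 0.531 to 0.710 of the alternate reads at 17197232 over the 17 animals carrying that allele, with a median of 0.599. The coefficient of variation of this ratio was 9.14%, against 31.7% for the ratio to all reads at 17197232. Over the same 17 animals, the reference reads at 17196961 amounted to 0.801 to 0.946 of all reads at 17197232, with a coefficient of variation of 3.83%. For their ratio to the reference reads at 17197232, in the 12 animals called 0/1, the coefficient of variation was 5.67%. RS943, left out of these ratios, had 775 reference reads at 17196961 and 982 reads at 17197232. The coefficients of 3.83% and 5.67% cover different sets of animals, with denominators of unlike read number. In the 12 animals called 0/1, the reference reads at 17197232 were also a nearly constant share of its depth. The order of these coefficients therefore cannot tell which reads the reference reads of the run followed. The alternate reads of the run varied less against the alternate reads at 17197232 than against its depth. The animals called 1/1 at 17197232, with 0 to 4 reference reads of at least 1118 in all, still had 60.6% to 63.2% reference reads at 17196961.

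The 5' UTR SNP at 17192676 showed a relation to the same calls, also noted after the values were seen and not tested, since it lies beyond 1000 bp. Among its heterozygous animals, the reference share was 53.7% in RS920, 54.0% in RS930, 48.1% in RS937, 55.8% in RS953 and 52.3% in RS969, all called 1/1 at 17197232. It was 41.7% in PS910, 43.8% in RS902, 49.6% in RS918, 44.6% in RS919 and 42.3% in RS926, all called 0/1 there. The means were 52.8% ± 2.88 (SD, n = 5) and 44.4% ± 3.13 (SD, n = 5), on opposite sides of an equal share, and the sets overlapped through RS937 and RS918. Within each set the dispersion was 0.986 and 0.917, compared with 2.93 over all 10 animals. The depth at this SNP was modest, with 162 to 396 reads in a heterozygous animal.

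Reads of an allele that an animal was called to lack were few outside the run. At 17192676 the 8 animals called 0/0 had 2 alternate reads among 2238, and at 17197232 the 5 animals called 1/1 had 7 reference reads among 7287. At 17197403 there were 3 reference reads among 3201 in the animals called 1/1 and none among 609 reads of the alternate allele in RS943, which allows a share of up to 0.493%. At 17200121 and 17200241 the 8 animals called 1/1 had 3 of 4874 and 16 of 5905 reference reads. In the run RS943 stood apart, with 43, 36, 15, 13 and 10 alternate reads from the first SNP to the last, which was 5.26%, 4.28%, 1.82%, 1.61% and 1.21% of its reads. Over the table, 2.37% of homozygous animal and SNP combinations with at least 20 reads had 5% or more of the other allele and 6.78% had 1% or more, and in RS943 these were 2.49% and 6.90%.

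Across the 16 animals with a homozygous PLIN4 call, the median percentage of the allele not called was above 0 in 11 animals, with a median over animals of 0.0923%. The median over the SNPs of other genes was 0 in each of these animals, so a difference of medians could take only one sign and no test of it is given. Taken as a mean over SNPs, PLIN4 was lower than the other genes in 15 of the 16 animals, and RS943 was the exception. The mean difference was -0.238 points ± 0.433 (SD, n = 16; permutation test, p = 0.0381). Of all homozygous combinations, 6.78% had 1% or more of the other allele, and their median was 0. The mean of the other genes thus depended on a minority of combinations, and a gene with few SNPs can lie below it without differing from most genes. For this reason the test cannot tell PLIN4 from a typical gene. Only RS943 was called homozygous in the run, so the other 15 animals entered with SNPs outside it alone.

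Runs as dense as that of PLIN4, with 5 or more SNPs within 25 bp, were found in 100 of the 5810 genes. In 76 of these genes the median SNP of the run was heterozygous in 17 or more of the 18 animals. Among the 99 other genes the median reference share over the run had a median of 64.9% and a range from 12.6% to 89.0%, and 85 were above 50%. PLIN4 had a median of 85.8%, and 6 genes were higher. The median dispersion between animals over the run was 13.2 for PLIN4, with 3 genes higher among the 94 with a value, PLIN4 included, while the others had a median of 1.05. A high reference share and frequent heterozygous calls were therefore common to such runs, and the dispersion of PLIN4 was near the upper end. For the same spread in shares, dispersion rises with read depth. PLIN4 was read deeply and depth was not equalized, so this place does not rank the spread in shares. These are descriptions of the runs, with no test.

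**Figure D4:**
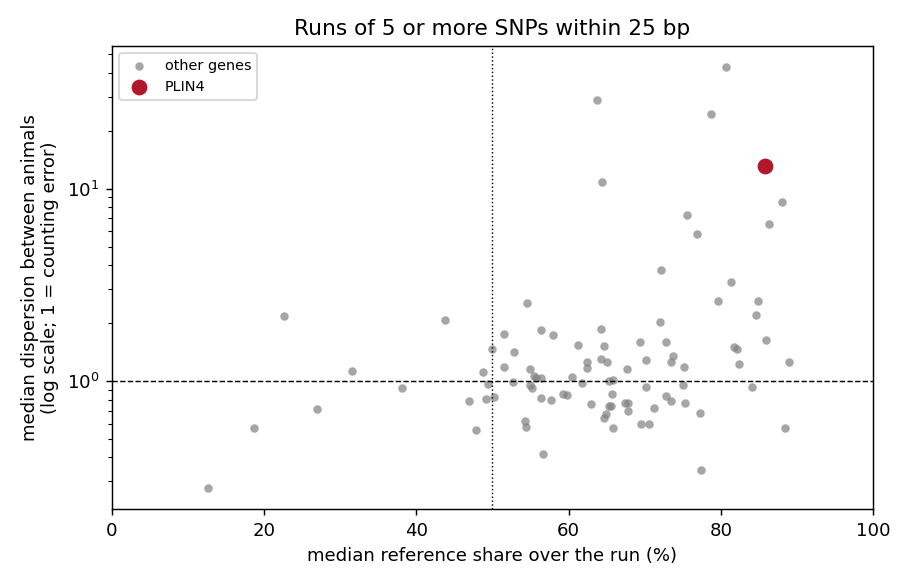
Each point is 1 of the 94 genes that had 5 or more SNPs within 25 bp and a dispersion value, placed by the median reference share over the run (x axis, in percent) and by the median dispersion between heterozygous animals (y axis, log scale, 1 is counting error). PLIN4 (red) lies at 85.8% and a dispersion of 13.2, where most of the other genes lie near a dispersion of 1. Dispersion rises with read depth, which was not equalized between genes.

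PLIN4 was read deeply in this tissue. A mean of 1569 reads per animal covered 17196961, more than at 98.6% of SNPs, and 278 covered the 5' UTR SNP, where the median SNP of the table had 65.5. Over its 10 SNPs the gene had between 1590 and 3366 RPM, a median of 2262, and the highest animal, RS930, had 2.12 times the lowest, RS905. The coefficient of variation between animals was 22.7%, compared with a median of 14.01% over the 3056 genes with at least 3 SNPs, of which 360 varied more. The males RS903 and RS918 had 3069 and 2320 RPM, within the range of the females. The dense run supplied 66.2% of the reads counted at the PLIN4 SNPs. Its SNPs share reads, so a read can be counted at several of them and this is not a share of distinct reads. The level also depends on the alternate reads counted in the run, which followed the call at 17197232. Over the 5 SNPs outside the run the order was another one, with the highest levels in RS903 (1058 RPM) and RS933 (1039 RPM), both called 0/1 at 17197232, followed by RS930 and then by RS969 (986 RPM) and RS953 (979 RPM), all called 1/1. In whole tissue a change in reads per cell and a change in the number of cells that express a gene cannot be told apart.

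The level was compared with the genotype at each SNP by a fit of log2 RPM on the number of alternate alleles, which over the table called 3.69% of 22109 SNPs (limma, adjusted p under 0.05). It could be fitted to the 5 PLIN4 SNPs outside the run, and 0 of them were called. None had an unadjusted p-value under 0.05 either, also with size factors from the median of ratios. At 17197232 the RPM were 253, 370, 215, 366 and 369 in RS920, RS930, RS937, RS953 and RS969, called 1/1, between 207 and 394 in the 12 animals called 0/1, with a median of 276, and 266 in RS943. These sets overlapped, and the change per allele was 0.12 ± 0.13 (SE) on the log2 scale (limma, adjusted p = 0.684). At 17197403 it was -0.19 ± 0.11 (adjusted p = 0.419).

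**Figure D5:**
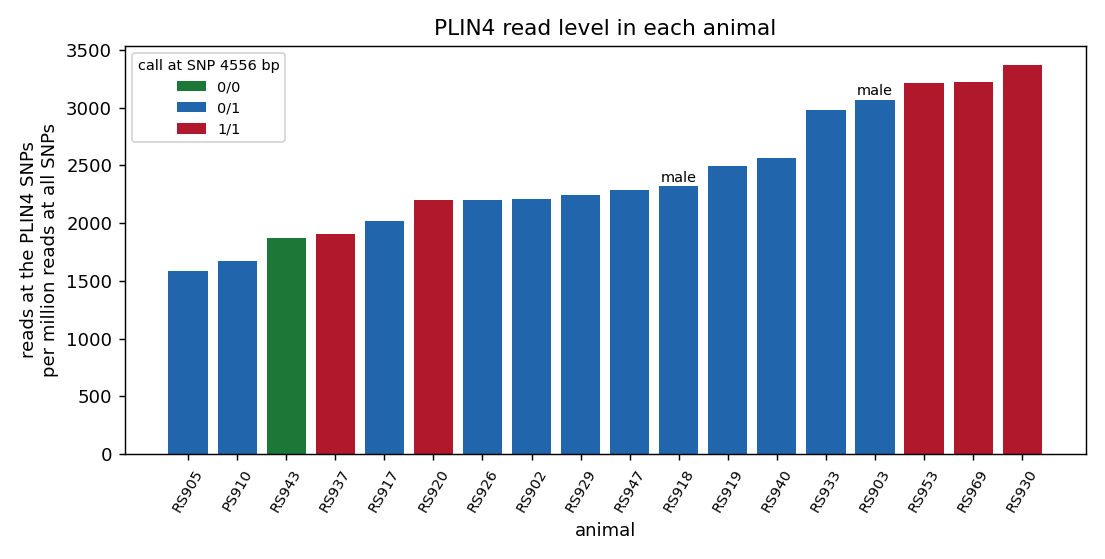
Bars give the reads at the 10 PLIN4 SNPs per 1000000 reads at all SNPs (RPM) in each of the 18 animals, in increasing order and coloured by the genotype call at 17197232. The 3 highest animals are called 1/1, at 3212 to 3366 RPM, and the 2 other animals of that call are at 1910 and 2197, within the range of the animals called 0/1. These levels include the alternate reads of the dense run, and outside the run the 2 highest animals are called 0/1.

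The other perilipins were described by the same shares. PLIN5, the perilipin of oxidative tissues, lies next to PLIN4 in the table, with its last SNP 5114 bp before the first of PLIN4. All 4 of its SNPs were called, 2 in each direction, with summed reference shares of 38.2% to 62.9%. At its top SNP, 17179271, the mean was 63.6% ± 6.81 (SD, n = 11 animals). PLIN3, a widely expressed perilipin on the same chromosome, had 11 of 12 SNPs called, 5 with a higher reference and 6 with a higher alternate allele, and shares from 28.8% to 63.1%. PLIN1, the major perilipin of the adipocyte droplet, had 3 of 3 SNPs called, each with a higher reference allele but shares of only 52.2% to 57.6%. No SNP of PLIN2 was in the table.

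Of the 46 gene symbols listed for lipid droplet proteins, triglyceride synthesis, lipolysis and caveolae, PLIN4 not included, 29 had a SNP. Of their 100 SNPs 64 showed AI, 44 with a higher reference and 20 with a higher alternate allele, which is 64% against 38% in the table, and the median reference share was 52.5% against 51.9%. With the animals as replicates 42 of these SNPs were called, against 24.5% of SNPs in the table. Genes differ in depth, which bears on how small a departure is called, and its part in these counts was not tested. The summed reference share lay between 28.8% and 63.1% at the 100 SNPs, so none had a reference share as high as those of the PLIN4 run, where the lowest was 68.8%. Toward the alternate allele, the lowest share, at PLIN3, was farther from 50% than that of 17196961. Outside the perilipins, the largest statistics were those of GPAM, the first enzyme of glycerolipid synthesis, PNPLA3, a lipid droplet acyl hydrolase, BSCL2, the seipin of droplet formation, CAV1, the coat protein of caveolae, and AUP1, a droplet protein. At their top SNPs the mean reference share was 59.4% ± 4.19 (SD, n = 10 animals) for GPAM, 28.0% ± 11.9 (SD, n = 7) for PNPLA3, 58.4% ± 4.87 (SD, n = 13) for BSCL2, 53.5% ± 2.93 (SD, n = 7) for CAV1 and 57.1% ± 3.34 (SD, n = 12) for AUP1. CIDEA, a droplet protein of brown adipocytes, had 1 SNP with a share of 48.2% that was not called (likelihood ratio test, adjusted p = 0.0663).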

How the data were processed

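RNA-Seq of 18 fetuses (paired 100 bp reads, 6-fold multiplexed) gave 1 table. According to the methods, the authors aligned reads to Oar v3.1 with STAR, allowing 10 mismatches and unique positions only, called SNPs and genotypes with GATK (version 3.4-46 in the submitters' processing notes), and kept SNPs inside ENSEMBL genes and outside simple repeats where 5 or more heterozygous animals had 10 reads or more of both alleles. The authors deposited raw counts of reads of each allele per SNP and animal, without normalization. Per the file headers the table also holds the authors' test statistic, p-value, higher allele and reference share, which were not used. One column is written PS910 and its sample label RS910, and they were matched by the number. The genotype calls come from the counted reads, so a share near 0 or 1 can go uncalled.

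The likelihood ratio statistic was computed on counts summed over the animals called 0/1 (numpy 2.4.6, scipy 1.17.1). The dispersion and chi-square test used the counts of each of these animals against their summed share. The quasi-binomial F test and the fits on pairs, neighbouring genotypes and levels used moderated variances (squeezeVar of limma 3.58.1). The fits, but not the F test, added an offset of 0.5 reads. A pair needed 5 shared animals with 20 reads, and a genotype fit 3 animals in each of at least 2 classes. Adjusted p-values are Benjamini-Hochberg over the whole table with a threshold of 0.05. Sign-flip tests were two-sided, with 100000 resamples. Fits were tested on simulated data. All PLIN4 SNPs were named, with the 3 perilipins and the 5 listed genes of largest statistic, and the 5 genes most correlated in level. The members and lists were chosen with earlier results of these data known. The fits on neighbouring genotypes and levels, and the dense runs, were added after the data were seen. Intervals cover counting error only. Alternatives are given at the end.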

Additional observations from a re-analysis of the deposited data

How the results depend on the processing

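The count of 8 PLIN4 SNPs with AI remained 8 with each animal left out in turn (8 to 8), and was within 1.5 times of 8 under every other alternative tried, the lowest being 6 after down-sampling to 50 reads. With the median share of all SNPs as the null, 17192676 and 17197232 were called for the alternate allele and 17200241 was no longer called. The median of the mean reference shares over the 10 SNPs was 0.650 and ranged from 0.647 to 0.653 with each animal left out. The 5 SNPs of the run were called against 17197232 with each animal left out (5 to 5), without the 2 males and RS929 (when 6 in place of 7 adjoining pairs differed), and with animals of any call that had 10 reads of each allele. The count of SNPs differing between animals went from 7 to 1 among animals called 0/1 at 17197232 and to 0 among those called 1/1. The 1 was 17200121. Among those called 1/1 fewer animals entered. There 17197232, 17197403, 17200121 and 17200241 had no heterozygous animal and could not be tested. With 4 in place of 5 SNPs within 25 bp, 182 in place of 100 genes had a dense run. No paired analysis was possible because all animals belong to 1 group and no replicate number is shared between groups, while SNPs were compared within animals as described. Depth limits the 5' UTR SNP most, and the precision of RS943 rests on 1 animal.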

Other observations

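The 5 genes with at least 3 SNPs whose level followed that of PLIN4 most closely over the 18 animals were TNPO2, with a Pearson correlation of 0.86 and a Spearman correlation of 0.88 of log2 RPM (reads at the SNPs of a gene per 1000000 reads at all SNPs), DDX6 (0.84 and 0.84), MYH10 (0.84 and 0.81), ADAMTS16 (0.79 and 0.77) and PGS1 (0.78 and 0.77). TNPO2 encodes a nuclear import receptor, DDX6 an RNA helicase, MYH10 a non-muscle myosin heavy chain, ADAMTS16 a secreted metalloprotease and PGS1 an enzyme of phospholipid synthesis. They were chosen as the highest of all genes compared, and all values of an animal share its library and total, so the correlations are descriptions of these libraries. The PLIN4 level used here includes the dense run, and the correlations of the level outside the run were not computed.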
